A study of Mus musculus with 6 samples.

Results

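Interferon-stimulated genes are the genes that a cell switches on when type I interferon binds its receptor. A list of 45 such genes and of the sensors and receptor chains that feed into them was followed through 6 single-nucleus libraries of mouse hippocampus, out of 33457 features counted. The list was given by gene name and was drawn up with earlier results of these data known, and 45 of 45 names were found among the features. A subset of 15 strongly inducible members, called the core below, was also summed: Ifit1, Ifit2, Ifit3, Isg15, Irf7, Oasl2, Oas1a, Oas2, Rsad2, Usp18, Cmpk2, Ifi44, Rtp4, Zbp1 and Herc6.

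The study asked how APOE made by astrocytes bears on tau disease. Each of the 6 groups is 1 library from B6 mice aged 9 months. FE3 is APOE3 fl/fl and FE4 is APOE4 fl/fl, so both carry a floxed human APOE allele, and neither was treated. TAFE3_oil and TAFE3_tam add to floxed APOE3 the P301S tau mutation and an inducible Cre spelled Aldh1la1CreERT, with oil given to the first and tamoxifen to the second. TAFE4_oil and TAFE4_tam are the same with floxed APOE4. The labels and protocols used here state neither the driver of the tau transgene nor how many animals went into a library. The P301S libraries differ from FE3 and FE4 in tau, Cre and oil together, which cannot be told apart, and tamoxifen cannot be told apart from the deletion that follows it. With 1 library per group there is no test of a condition, and p-values and standard errors cannot be had. Levels are counts of unique molecular identifiers (UMIs), divided by all UMIs of that cell class in that library and given as CPM. Brackets hold exact 95% intervals, Poisson for a level and conditional binomial for a log2 ratio, and they cover counting error only.

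Type I interferon is read by a receptor of the chains Ifnar1 and Ifnar2, which signal through the kinases Jak1 and Tyk2. The kinases phosphorylate Stat2, which acts with Irf9 in a complex that binds the interferon-stimulated response element, a pair of GAAA blocks, in the promoters of its targets. In brain, microglia, astrocytes, vessel cells and neurons can all respond, and a microglial interferon state is known from ageing and from models of neurodegeneration.

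The element was searched for as GAAANNGAAA on both strands in RefSeq promoter windows of the build GRCm38.p6, because it is the feature that the targets are known to share. A match was present in 17 of the 36 members that had a window (47.2%), against 1079 of all 27025 genes with a window (3.99%). Of other genes of the pathway, 21 of 59 with a window held a match (35.6%). The longer form GAAANNGAAAC was in 15 of 36 members (41.7%) and in 0.944% of all genes with a window. The gamma activated site TTCNNNGAA, searched in the same way, was in 9 of 36 members (25%) and in 9.55% of all genes with a window. No window was used for Oas2, Mx1, Usp18, Ifi27, Dhx58, Parp14, Parp9, Rtp4 and Zbp1. The stretches below are read 5′ to 3′ along each gene's own strand, and capitals mark every match of the short form or its reverse complement. Ifit1, Ifit3, Isg15, Bst2, Ddx60 and Gbp7 are shown because their levels carry results that follow and a match was found. Irf7, Oasl2 and Rnf213 also carry results that follow and have no match in their window. Nor have the receptor chains Ifnar1 and Ifnar2, and the bases next to the starts used are shown for all of these. The start used for Rnf213 lies upstream of its gene start in the GENCODE annotation, chr11:119393100, and the bases there were not searched. Of 42 member windows checked, 34 had the bases after the start in an annotated transcript.
Ifit1, chr19:34640765-34640833, plus strand: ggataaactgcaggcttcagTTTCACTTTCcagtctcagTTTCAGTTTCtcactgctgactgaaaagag
Ifit3, chr19:34583353-34583436, plus strand: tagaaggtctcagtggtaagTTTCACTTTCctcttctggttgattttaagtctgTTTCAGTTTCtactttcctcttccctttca
Isg15, chr4:156200855-156200916, minus strand: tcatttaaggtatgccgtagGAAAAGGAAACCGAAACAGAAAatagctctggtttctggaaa
Bst2, chr8:71537567-71537622, minus strand: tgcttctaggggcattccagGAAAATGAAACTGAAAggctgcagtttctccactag
Ddx60, chr8:61928014-61928086, plus strand: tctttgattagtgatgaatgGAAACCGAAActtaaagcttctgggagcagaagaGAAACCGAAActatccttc
Gbp7, chr3:142530263-142530312, plus strand: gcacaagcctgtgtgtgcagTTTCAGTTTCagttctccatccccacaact
Irf7, chr7:141266425-141266484, minus strand: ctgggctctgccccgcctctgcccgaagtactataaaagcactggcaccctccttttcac
Oasl2, chr5:114896874-114896933, plus strand: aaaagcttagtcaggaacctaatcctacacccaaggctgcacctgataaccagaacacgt
Rnf213, chr11:119390039-119390098, plus strand: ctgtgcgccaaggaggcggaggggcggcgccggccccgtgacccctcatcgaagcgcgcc
Ifnar1, chr16:91485155-91485214, plus strand: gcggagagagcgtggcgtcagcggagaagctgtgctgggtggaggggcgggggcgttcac
Ifnar2, chr16:91372723-91372782, plus strand: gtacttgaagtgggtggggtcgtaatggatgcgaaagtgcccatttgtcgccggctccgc

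The members are spread over 15 chromosomes. Chromosome 11 holds 8 of them, among them Slfn2, Slfn5 and Slfn8, and chromosome 16 holds 7, among them both receptor chains. Ifit1, Ifit2 and Ifit3 are neighbours on chromosome 19, and Rsad2 and Cmpk2 lie on chromosome 12. The Ifit, Oas, Slfn and Gbp families have near-identical copies, so UMIs may be split between relatives there.

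The libraries held 14762 to 18171 barcodes, of which 10079 to 15707 nuclei were used, with medians of 2176 to 2592 UMIs. Median mitochondrial shares were 0.62% in FE4 and 0.69% in TAFE4_tam and lay between 2.01% and 3.23% in the others. Pairs of libraries shared 0.41% to 0.53% of barcodes. Clusters were named from markers as microglia-like, astrocyte-like and so on, and the suffix is left out below. Human APOE, the floxed gene, was 11430, 10234, 15238, 4909, 18878 and 5698 CPM in astrocytes of FE3, FE4, TAFE3_oil, TAFE3_tam, TAFE4_oil and TAFE4_tam. It was thus lower in both tamoxifen libraries there, while in microglia it was 15999 and 14671 CPM in the APOE3 oil and tamoxifen libraries and 27119 and 20932 CPM in the APOE4 ones. It was lower with tamoxifen in other classes too, with 5960 and 3157 CPM in vascular cells of the APOE3 pair and 6457 and 2744 CPM in those of the APOE4 pair. In excitatory neurons it was 1094 and 616 CPM and 1677 and 661 CPM. The mix of regions differed between libraries, with CA1 neurons at 1576, 1857, 580, 933, 306 and 1046 nuclei and astrocytes at 552, 1130, 332, 375, 281 and 236. All lists of 6 values below keep this order of libraries.

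The summed core was higher in every P301S library than in FE3 and FE4 in each glial, vascular and neuronal class named below, and, except in border macrophages, highest of all in TAFE4_tam. In microglia, the resident macrophages, the summed core was 43.4, 38.0, 236, 264, 197 and 584 CPM. In astrocytes it was 35.7, 31.6, 215, 204, 201 and 605 CPM. Both glial classes thus held similar sums within each library. Oligodendrocyte precursors held 28.3, 34.6, 149, 170, 128 and 409 CPM. In oligodendrocytes, which make myelin, the sum was lower, with 22.5, 18.6, 96.7, 95.2, 79.0 and 150 CPM. Each of these glial classes had its lowest sums in FE3 and FE4 and its highest in TAFE4_tam.

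Vascular cells started from a higher level. Their core sum was 225, 228, 511, 543, 556 and 835 CPM. Fibroblasts or smooth muscle within that class held 224, 184, 478, 515, 474 and 535 CPM. That class joins a pair of clusters, and TAFE4_tam was highest in neither: the larger held 580 CPM in TAFE3_tam and 539 CPM in TAFE4_tam, and the smaller, of 25 to 49 nuclei a library, 969 CPM in TAFE3_oil and 507 CPM in TAFE4_tam. In the smaller TAFE3_tam, with 200 CPM, was below FE4, with 336 CPM. Endothelial cells held 400, 743, 729, 808 and 1857 CPM from FE4 to TAFE4_tam, and FE3 had too few nuclei of that type. In fibroblasts or smooth muscle the log2 ratio of TAFE4_tam to TAFE4_oil was 0.18 [-0.04, 0.40], an interval that includes 0. Over all vascular cells the log2 ratio of TAFE4_tam to TAFE3_tam was 0.62, and with no limit on mitochondrial UMIs it was -0.04. Border macrophages, of 14 to 48 nuclei a library, did not have their highest sum in TAFE4_tam: theirs was 222, 245, 317, 732, 408 and 361 CPM.

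Excitatory neurons as a whole held a core sum of 11.5, 8.71, 57.8, 70.6, 57.0 and 155 CPM. CA1 neurons, the output cells of the hippocampus, held 8.93, 6.96, 136, 116, 72.0 and 328 CPM. Dentate granule neurons held 10.9, 8.34, 35, 62.1, 49.3 and 130 CPM. Both regions were highest in TAFE4_tam. Subicular or cortical neurons held 11.4, 10.1, 54.1, 65.7, 55.5 and 113 CPM. Inhibitory neurons held 16.3, 16.4, 55.5, 51.3, 46.9 and 94.1 CPM. Among these neuronal classes CA1 neurons had the highest sum in each P301S library and the lowest in FE3 and FE4.

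As log2 ratios, the core was higher in TAFE3_oil than in FE3 by 2.45 [1.5, 3.59] in microglia, 2.59 [2.07, 3.15] in astrocytes, 2.11 [1.28, 3.04] in oligodendrocytes, 1.18 [0.95, 1.42] in vascular cells and 3.93 [3.46, 4.43] in CA1 neurons. TAFE4_oil over FE4 gave 2.38 [1.81, 3.00], 2.67 [2.29, 3.06], 2.09 [1.48, 2.73], 1.28 [1.06, 1.51] and 3.37 [2.83, 3.93] in the same classes. No interval reached 0. Microglia of FE3 rest on 137 nuclei with 9 core UMIs, which is why their interval is wide. Without P301S, FE4 over FE3 gave -0.19 [-1.32, 1.08] in microglia, -0.17 [-0.74, 0.41] in astrocytes, 0.02 [-0.25, 0.29] in vascular cells and -0.36 [-1.01, 0.29] in CA1 neurons, and each of these intervals includes 0. Over all excitatory neurons FE4 was lower than FE3, at -0.40 [-0.66, -0.13].

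Core sums were higher in TAFE4_tam than in TAFE4_oil. These libraries also differed in median mitochondrial share, which was 2.82% and 0.945% in microglia and 1.5% and 0.452% in CA1 neurons of TAFE4_oil and TAFE4_tam. Its part in the ratios was not tested. With at most 1% mitochondrial UMIs per nucleus the ratio was 3.30 in CA1 neurons, 0.84 in inhibitory neurons and 1.95 in oligodendrocytes. Microglia, astrocytes, oligodendrocyte precursors and vascular cells gave no ratio at that limit. Changed filters, clustering or scaling were not run for endothelial cells by themselves, fibroblasts or smooth muscle, other excitatory neurons or all excitatory neurons together. With no mitochondrial limit the ratio in astrocytes was 1.06. TAFE4_tam over TAFE4_oil gave log2 ratios of 1.56 [1.36, 1.77] in microglia, 1.59 [1.29, 1.89] in astrocytes, 0.92 [0.56, 1.29] in oligodendrocytes, 1.2 [1.00, 1.41] in endothelial cells, 2.18 [1.87, 2.51] in CA1 neurons and 1.00 [0.77, 1.24] in inhibitory neurons. TAFE3_tam over TAFE3_oil gave 0.16 [-0.11, 0.43], -0.08 [-0.39, 0.23], -0.02 [-0.47, 0.42], -0.03 [-0.30, 0.25], -0.23 [-0.46, -0.00] and -0.11 [-0.39, 0.16] in the same order. In other classes the APOE3 pair was higher with tamoxifen. Dentate granule neurons gave 0.83 [0.41, 1.26], beside 1.39 [1.05, 1.75] in the APOE4 pair. Other excitatory neurons gave 0.79 [0.44, 1.16], subicular or cortical neurons 0.28 [0.10, 0.46] and all excitatory neurons 0.29 [0.17, 0.41] in the APOE3 pair. Without Ifit1 those of the last 2 were -0.11 [-0.32, 0.10] and 0.05 [-0.09, 0.20], and these intervals include 0. The intervals of the 2 pairs do not overlap in the 6 classes named first, but with 1 library per group the difference between the alleles was not tested. Between the oil libraries, TAFE4_oil over TAFE3_oil gave -0.26 [-0.51, -0.01] in microglia and -0.10 [-0.43, 0.23] in astrocytes, and -0.92 [-1.28, -0.57] in CA1 neurons. The CA1 value did not hold in every setting: it was -2.41 with at most 1% mitochondrial UMIs, 0.04 with interferon genes used in clustering and -0.18 without Ifit1.

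**Figure D1:**
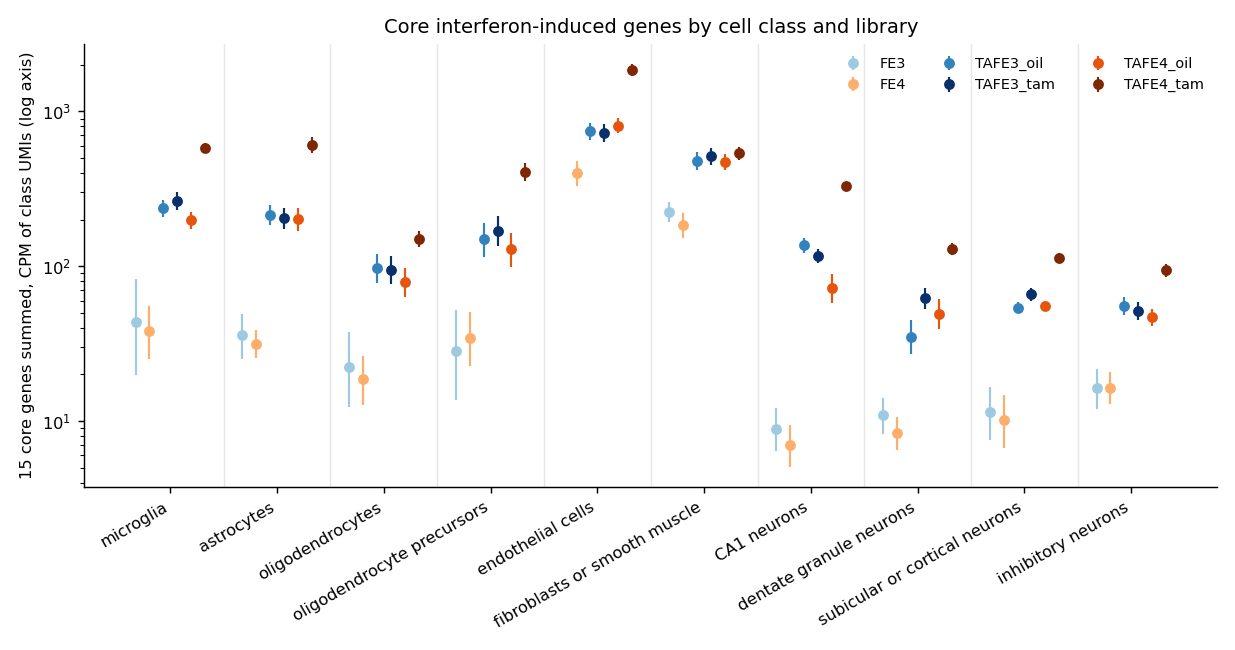
Summed level of the 15 core members (CPM, log axis) in 10 cell classes, 1 point per library with its exact Poisson interval, FE3 not drawn for endothelial cells. FE3 and FE4 lie lowest in each class and TAFE4_tam highest, at 584 CPM in microglia and 328 CPM in CA1 neurons.

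Levels of other cell types' genes also moved between libraries. The summed level of the 9 microglial markers in astrocytes was 184, 122, 456, 385, 529 and 452 CPM, and in CA1 neurons 93.8, 78.7, 201, 203, 243 and 252 CPM. It was thus higher in the P301S libraries. Between TAFE4_oil and TAFE4_tam it was lower in astrocytes and nearly level in CA1 neurons, while the core sums were 3.01 and 4.55 times higher in TAFE4_tam. In microglia themselves these markers were 6373, 6775, 6548, 6125, 6603 and 7943 CPM. Ifit1 made up 9.75% of core UMIs in microglia of TAFE4_tam, 16.6% in astrocytes and 60.4% in CA1 neurons. The part of free or misassigned RNA in the neuronal and astrocytic levels was not tested.

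The receptor chains were nearly level in excitatory neurons, and in microglia their values were somewhat higher with P301S. The FE3 level in microglia rests on few UMIs, from 137 nuclei, so its counting error is wide. Ifnar1 was 48.2, 65.2, 67.6, 72.3, 74.0 and 88.2 CPM in microglia and 34.6, 33.2, 32.5, 33.7, 35.3 and 34.8 CPM in excitatory neurons. Ifnar2, the chain that binds interferon with high affinity, was 62.7, 62.5, 86.2, 78.5, 90.5 and 123 CPM in microglia. In excitatory neurons it was 16.2, 12.9, 14.4, 15.8, 14.1 and 16.2 CPM. For both chains summed, the ratio of TAFE3_oil to FE3 was 0.47 on the log2 scale in microglia and -0.12 in excitatory neurons, and that of TAFE4_oil to FE4 was 0.37 and 0.10. TAFE4_tam exceeded TAFE4_oil by 0.36 [0.11, 0.62] in microglia, and in excitatory neurons the ratio was 0.05 [-0.08, 0.17]. Astrocytes held 63.6, 44.1, 64.8, 69.5, 63.2 and 54.6 CPM of the chains together, with no order that followed P301S or tamoxifen.

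Of the transcription factors, Stat2 and Irf9 were present in every library, and Irf7 was nearly absent without P301S in microglia, astrocytes and CA1 neurons. Stat2 was 33.8, 24.4, 61.3, 48.6, 30.7 and 111 CPM in microglia. In CA1 neurons it was 32.1, 31.6, 51.4, 49.1, 31.6 and 95.8 CPM. TAFE4_oil was thus near FE4 in both classes, with log2 ratios of 0.33 [-0.51, 1.22] and -0.00 [-0.54, 0.50], and TAFE4_tam was above TAFE4_oil by 1.85 [1.34, 2.39] and 1.60 [1.12, 2.12]. Irf9, the DNA-binding partner of Stat2, was likewise highest in TAFE4_tam, with 38.6, 31.2, 42.7, 54.8, 55.1 and 113 CPM in microglia and 24.9, 18.9, 27.1, 23.3, 22.7 and 49.96 CPM in CA1 neurons. Irf7, the inducible factor that amplifies the response, was higher in each P301S library in these 3 classes. It was 0, 1.36, 18.7, 26.2, 14.9 and 53.7 CPM in microglia, 0.964, 0.988, 13.4, 13.4, 8.82 and 26.2 CPM in astrocytes, and 0.213, 0.486, 9.05, 6.53, 4.05 and 18.1 CPM in CA1 neurons. The log2 ratio of Irf7 in TAFE4_tam to TAFE4_oil was 1.84 [1.11, 2.65] in microglia and 2.16 [0.86, 3.83] in CA1 neurons. Endothelial cells of TAFE4_tam held 247 CPM of Irf7, against 40.3, 54.4, 69.4 and 64.1 CPM in FE4, TAFE3_oil, TAFE3_tam and TAFE4_oil. In TAFE4_tam 13 of 77 endothelial nuclei held 66 Irf7 UMIs, so this level rests mostly on few nuclei.

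Among the sensors, Eif2ak2 codes for PKR, which senses double-stranded RNA and stops translation. It was 4.82, 21.7, 49.8, 46.1, 36.2 and 99.7 CPM in microglia, 12.5, 9.88, 26.9, 12.2, 33.8 and 69.9 CPM in astrocytes and 2.09, 1.98, 5.91, 4.87, 5.19 and 12.3 CPM in excitatory neurons. TAFE4_tam was highest in all 3 classes, by 1.46 [0.98, 1.97], 1.05 [0.23, 1.89] and 1.24 [0.91, 1.58] over TAFE4_oil on the log2 scale. In the APOE3 pair Eif2ak2 was lower with tamoxifen in CA1 neurons, by a log2 ratio of -1.23 [-2.20, -0.29]. Ddx60, a helicase that aids RIG-I, was 3.86, 3.29, 20.8, 14.6, 26.5 and 69.9 CPM in astrocytes. Its log2 ratio to the library without tau was 2.43 [0.81, 4.46] with APOE3 and 3.01 [1.81, 4.28] with APOE4. Ddx58, which codes for RIG-I itself, was steadier, with 19.3, 24.4, 24, 33.6, 29.9 and 56.9 CPM in microglia. Zbp1, a sensor of Z-form nucleic acids, was 4.82, 1.36, 10.7, 13.7, 9.44 and 35.2 CPM in microglia and rested on at most 2 UMIs in any library in astrocytes. Ifih1, which codes for MDA5, was 4.82, 8.15, 12.4, 16.2, 8.66 and 27.5 CPM in microglia, and Dhx58, which codes for LGP2, was 14.5, 10.9, 21.3, 28.7, 18.9 and 40.9 CPM.

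Among the antiviral effectors, the protein of Ifit1 binds viral RNA that lacks the host's cap methylation. In microglia it was 0, 5.43, 43.6, 36.1, 17.3 and 56.9 CPM. In astrocytes it was 0, 2.63, 22.0, 31.7, 19.1 and 101 CPM, and in oligodendrocytes 0, 0, 18, 13.9, 9.52 and 38.1 CPM. In CA1 neurons Ifit1 went from 1.91 and 1.62 CPM in FE3 and FE4 to 89.5, 60.9, 30.8 and 198 CPM in the P301S libraries. The log2 ratios in CA1 neurons were 5.55 [4.59, 6.70] for TAFE3_oil over FE3, 4.25 [3.22, 5.42] for TAFE4_oil over FE4, -0.56 [-0.85, -0.26] for tamoxifen with APOE3 and 2.69 [2.21, 3.20] for tamoxifen with APOE4. Ifit1 weighs on the CA1 sums: without it the core ratios there were 2.73 and 2.95 for P301S and 0.24 and 1.65 for tamoxifen, so the sign of the APOE3 tamoxifen ratio turned. For Ifit1 itself, the APOE3 tamoxifen ratio over all excitatory neurons had the opposite sign to that in CA1 neurons, 0.72 [0.52, 0.93]. The promoter of Ifit1 holds 2 matches of the element, as printed above.

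Ifit3 was 7.71, 5.27, 53.8, 47.6, 41.2 and 127 CPM in astrocytes, where both P301S ratios were large: 2.80 [1.70, 4.10] with APOE3 and 2.97 [2.03, 3.95] with APOE4. In endothelial cells it was 63.9, 109, 97.2, 59.0 and 292 CPM from FE4 on, so TAFE4_oil did not exceed FE4, at -0.11 [-1.05, 0.84], while TAFE4_tam exceeded TAFE4_oil by 2.31 [1.63, 3.04]. The TAFE4_tam level rests mostly on 13 of 77 nuclei, which held 72 Ifit3 UMIs. Oasl2, an oligoadenylate synthetase-like protein, was 0, 0, 15.1, 33.6, 21.2 and 77.4 CPM in microglia. In the APOE3 pair Oasl2 was the one core member past 2-fold with tamoxifen in microglia and in astrocytes, at 1.15 [0.23, 2.12] and 1.10 [-0.29, 2.63]. The APOE4 pair gave 1.86 [1.25, 2.52] and 2.16 [0.76, 3.78]. Oas1a and Oas2 make the oligoadenylates that switch on RNase L. Oas2 was 0, 1.36, 13.3, 16.2, 9.44 and 36.4 CPM in microglia and Oas1a 0, 0, 5.33, 2.49, 5.51 and 21.7 CPM.

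Rsad2 codes for viperin, an enzyme that makes a chain-terminating nucleotide. In astrocytes it was 2.89, 2.63, 12.2, 7.32, 1.47 and 50.3 CPM, with a log2 ratio of TAFE4_tam to TAFE4_oil of 5.10 [2.47, 10.46] that rests on 1 UMI in the oil library. Cmpk2, the mitochondrial nucleotide kinase on the same chromosome, was 2.89, 1.98, 11, 7.32, 4.41 and 13.1 CPM there. In vascular cells Rsad2 was higher with P301S but not highest in TAFE4_tam, with 10.2, 9.80, 27.4, 33.8, 52.3 and 35.8 CPM. Mx1 codes for a GTPase that traps viral nucleocapsids, and B6 mice are known to carry a defective allele. It was 4.82, 4.07, 16.9, 21.2, 22.0 and 69.1 CPM in microglia but 2.04, 1.96, 7.36, 0, 19.3 and 2.44 CPM in vascular cells, where TAFE4_tam was lower than TAFE4_oil by a log2 ratio of -2.98 [-5.37, -1.24].

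Bst2 and Ifitm3 code for membrane proteins, tetherin that holds budding virus and a block to entry from endosomes. Bst2 was 6.75, 6.25, 55.0, 62.2, 44.1 and 107 CPM in astrocytes and 2.76, 1.62, 26.7, 18.3, 15.4 and 46.7 CPM in CA1 neurons. The P301S ratios of Bst2 on the log2 scale were 3.03 [1.87, 4.42] and 2.82 [1.94, 3.73] in astrocytes and 3.27 [2.38, 4.26] and 3.25 [2.07, 4.52] in CA1 neurons, with APOE3 and APOE4. Ifitm3 was 19.3, 19.1, 148, 113, 112 and 221 CPM in astrocytes. In CA1 neurons it was 6.59, 4.05, 21.9, 20.8, 19.4 and 18.4 CPM. Its tamoxifen ratio with APOE4 in CA1 neurons was -0.08 [-0.78, 0.67], which includes 0, where that of Bst2 was 1.60 [0.91, 2.37]. Vascular cells had the highest Ifitm3 levels, 504, 275, 512, 547, 635 and 910 CPM, and FE3 was there as high as TAFE3_oil, at 0.02 [-0.16, 0.21].

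Samd9l, which restricts translation in infected cells, was 0, 2.72, 22.2, 26.2, 7.08 and 53.1 CPM in microglia, with 2.91 [1.91, 4.08] for TAFE4_tam over TAFE4_oil. Of the Schlafen genes, Slfn8 was 19.3, 28.5, 42.7, 61.1, 37.8 and 123 CPM in microglia, and at most 9.33 CPM in vascular cells and 10.9 CPM in astrocytes. Slfn2 was 4.82, 6.79, 25.8, 26.2, 26 and 62.7 CPM in microglia. Slfn5 was 0, 0, 8.0, 17.4, 14.9 and 39.6 CPM there and at most 2.19 CPM in astrocytes. The guanylate-binding GTPases Gbp3 and Gbp7, which attack the vacuoles of pathogens, followed P301S in astrocytes. Gbp7 was 11.6, 7.57, 33.0, 31.7, 35.3 and 59.0 CPM in astrocytes and 19.3, 17.7, 7.11, 15.0, 14.2 and 19.2 CPM in microglia, so both P301S libraries with oil exceeded their controls in astrocytes, at 1.51 [0.48, 2.63] and 2.22 [1.33, 3.11], and neither did in microglia. Gbp3 was 4.82, 2.96, 18.3, 22.0, 11.8 and 59.0 CPM in astrocytes and at most 8.95 CPM in microglia. Ifit2 was at most 28.5 CPM in vascular cells and 15.3 CPM in astrocytes, and was 0, 0, 8.89, 11.2, 7.08 and 26.9 CPM in microglia.

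**Figure D2:**
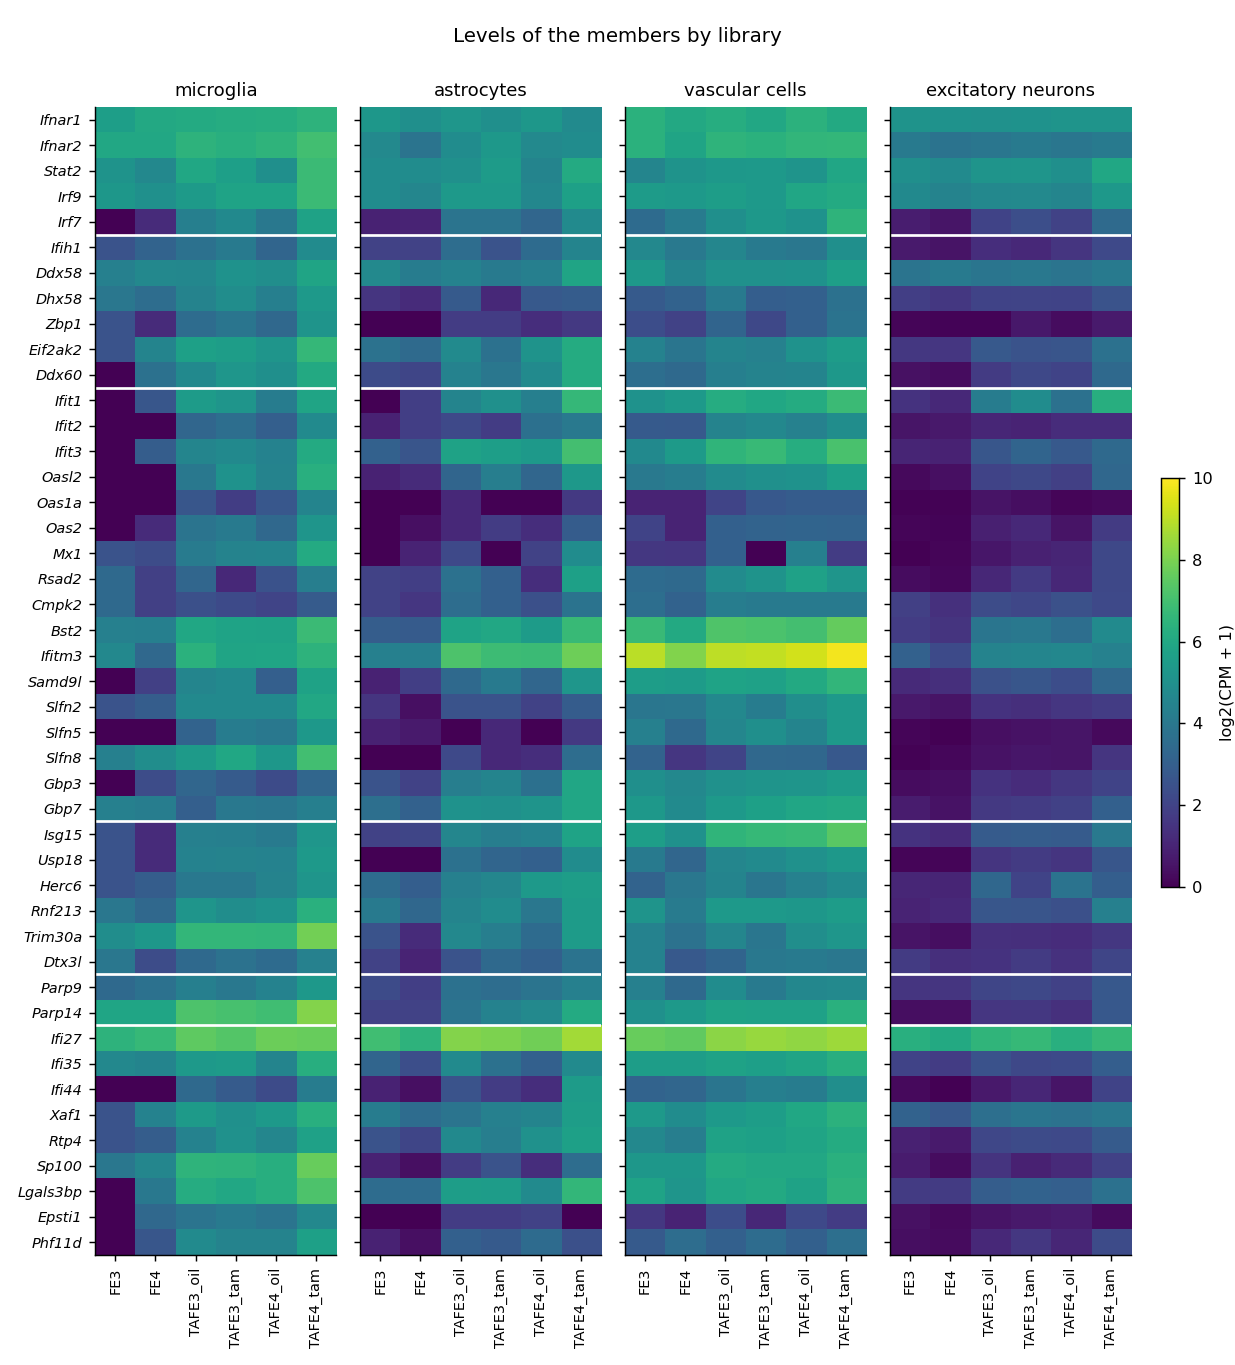
Level of each of the 45 members as log2(CPM + 1), by library, in microglia, astrocytes, vascular cells and excitatory neurons, with white lines between role groups (receptors and factors, sensors, effectors, ISG15 and ubiquitin pathway, ADP-ribosylation, others). In microglia Ifit1, Ifit3, Oasl2 and Irf7 are darkest in FE3 and FE4, and in vascular cells Ifitm3 reaches 910 CPM in TAFE4_tam.

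Isg15 is a ubiquitin-like modifier, Usp18 removes it and also brakes the receptor, and Herc6 is its ligase in mice. Isg15 was 47.9, 32.3, 92.6, 103, 108 and 174 CPM in vascular cells and 2.89, 3.29, 23.2, 18.3, 20.6 and 54.6 CPM in astrocytes. In CA1 neurons it was 1.49, 1.62, 8.09, 7.77, 12.1 and 31.6 CPM. The ratio of TAFE4_tam to TAFE4_oil was 0.69 [0.36, 1.02], 1.41 [0.41, 2.47] and 1.38 [0.59, 2.26] on the log2 scale in these classes. Usp18 was 4.82, 1.36, 20.4, 21.2, 20.5 and 40.3 CPM in microglia, so its tamoxifen ratio with APOE4, 0.98 [0.30, 1.70], was at the 2-fold line.

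In excitatory neurons Herc6 was lower, not higher, with tamoxifen in both pairs. It was 1.10, 1.06, 9.14, 3.08, 13 and 6.90 CPM there. TAFE3_oil exceeded FE3 by 3.06 [2.41, 3.77] and TAFE4_oil exceeded FE4 by 3.61 [3.06, 4.21] on the log2 scale, but both tamoxifen libraries were lower than their oil libraries, by -1.57 [-2.02, -1.14] with APOE3 and -0.91 [-1.21, -0.61] with APOE4. In microglia Herc6 was 4.82, 6.79, 15.1, 15.0, 21.2 and 35.8 CPM, with TAFE4_tam highest. The excitatory class pools regions whose share of nuclei differed between libraries. Within subicular or cortical neurons alone Herc6 was 0.814, 1.12, 14.1, 3.38, 16.4 and 12.3 CPM, with tamoxifen ratios of -2.06 [-2.77, -1.42] and -0.42 [-0.79, -0.06]. That class also joins clusters whose mix differed between libraries. Its cluster with Rorb and Cux2 among the leading genes held 201, 110, 1973, 1015, 2934 and 1214 nuclei. The whole class held 864, 914, 3179, 2033, 4246 and 2206. The part of this mix in the Herc6 values was not tested. In CA1 neurons the ratios were -0.25 [-1.85, 1.41] and 0.78 [-0.81, 2.79], and both intervals include 0.

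Rnf213, a very large ubiquitin ligase that acts at lipid droplets, was 14.5, 9.51, 36.4, 28.7, 33.0 and 80.6 CPM in microglia. In CA1 neurons it was 0.213, 0.809, 13.8, 9.63, 2.43 and 41.8 CPM, and TAFE4_tam exceeded TAFE4_oil there by 4.10 [2.53, 6.40], on 143 and 3 UMIs. Trim30a was 28.9, 38.0, 97.8, 98.4, 96.0 and 233 CPM in microglia and at most 2.86 CPM in CA1 neurons. Dtx3l, the partner of Parp9 in ubiquitin transfer, was 20.4, 5.88, 8.42, 15.2, 16.5 and 14.7 CPM in vascular cells, lower with P301S in the APOE3 pair and higher in the APOE4 pair, at -1.28 [-2.67, -0.03] and 1.49 [0.10, 3.11]. Parp14, an ADP-ribosyl transferase, was 57.9, 58.4, 145, 136, 122 and 281 CPM in microglia, with P301S ratios of 1.32 [0.48, 2.31] and 1.06 [0.57, 1.58]. In excitatory neurons it was 0.299, 0.319, 2.01, 2.05, 1.63 and 5.66 CPM. Parp9 was 9.65, 12.2, 18.7, 15.0, 20.5 and 39.6 CPM in microglia.

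Among the remaining members, Sp100, a protein of nuclear bodies, was 14.5, 23.1, 88.9, 88.5, 75.5 and 205 CPM in microglia and at most 10.9 CPM in astrocytes. The log2 ratios of Sp100 in microglia were 2.62 [1.03, 4.92] and 1.71 [0.96, 2.55] for P301S, -0.01 [-0.47, 0.45] for tamoxifen with APOE3 and 1.44 [1.10, 1.78] with APOE4. Lgals3bp, a secreted glycoprotein, was 0, 14.9, 72.9, 62.3, 75.5 and 146 CPM in microglia and 10.6, 10.53, 46.5, 45.1, 26.5 and 98.4 CPM in astrocytes. Ifi27, a mitochondrial protein, was present in every library. It was 86.8, 102, 185, 158, 216 and 202 CPM in microglia and 121, 86.2, 284, 259, 225 and 387 CPM in astrocytes. The tamoxifen ratios of Ifi27 in microglia, -0.22 [-0.55, 0.10] and -0.10 [-0.34, 0.14], include 0. Xaf1, which binds an inhibitor of apoptosis, was present in oligodendrocytes of every library, with 38.5, 48.0, 60.7, 84.5, 76.2 and 93.8 CPM. Rtp4, a chaperone of receptors, was 4.82, 3.29, 25.7, 18.3, 32.3 and 50.3 CPM in astrocytes. Ifi44 was 0.964, 0.329, 4.89, 2.44, 1.47 and 43.7 CPM there, with 4.89 [2.25, 10.27] for TAFE4_tam over TAFE4_oil on 20 UMIs and 1 UMI. Ifi35, Phf11d and Epsti1 reached at most 76.1, 49.9 and 24.3 CPM in microglia, in each case in TAFE4_tam.

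**Figure D3:**
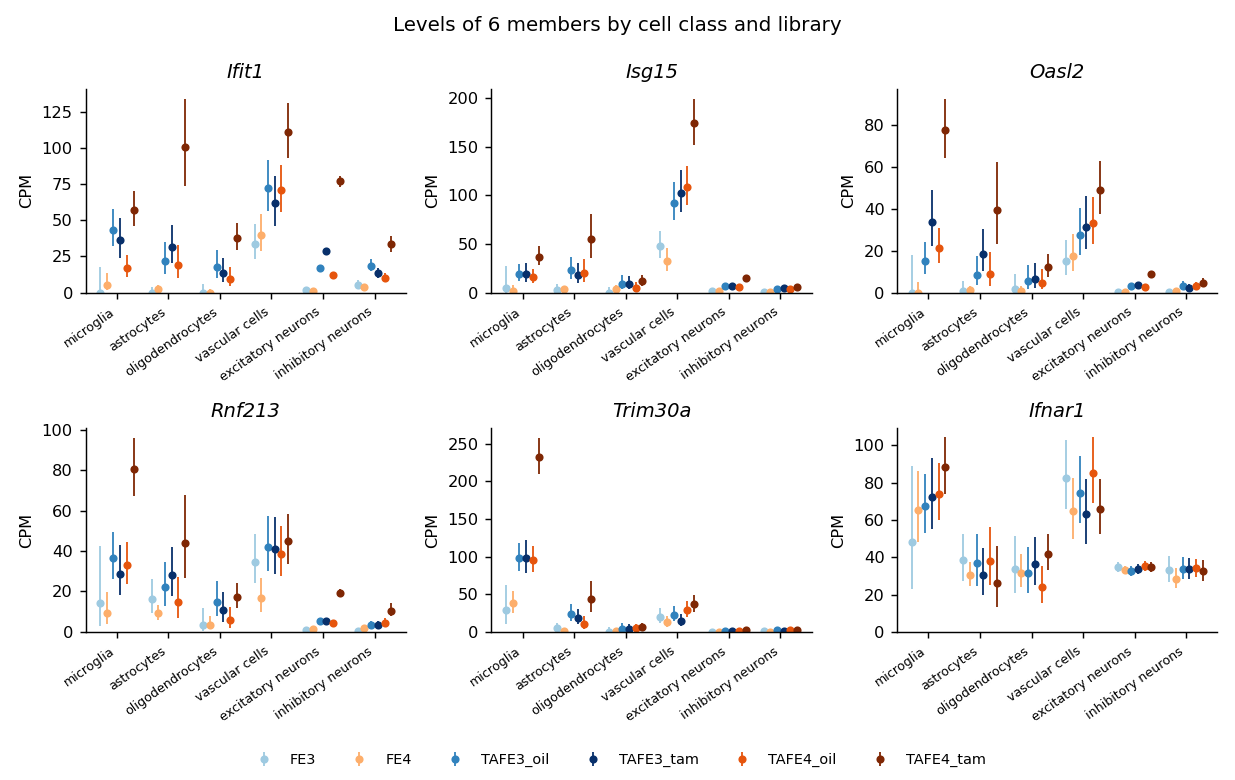
Levels (CPM, linear axes that differ between panels) of Ifit1, Isg15, Oasl2, Rnf213, Trim30a and Ifnar1 in 6 cell classes, 1 point per library with its exact Poisson interval. Ifnar1 lies between 32.5 and 35.3 CPM in excitatory neurons of all libraries, while Trim30a reaches 233 CPM in microglia of TAFE4_tam.

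Members were then counted past 2-fold, among those that reached 20 UMIs in the pair of libraries together and 3 CPM in one of them. A member that passed only through its high library had to differ, and the list was drawn up with earlier results known, so these counts describe the list and are no support by themselves, and each is set beside the percent of all genes called by the same rule. In microglia 30 of 45 members passed for TAFE3_oil over FE3 and 17 were at least 2-fold higher, where 11.1% of all genes were. With APOE4, 33 passed and 21 were higher, beside 13% of all genes. Tamoxifen with APOE3 gave 3 of 39, Oasl2, Slfn5 and Gbp7, beside 1.67%. Tamoxifen with APOE4 gave 30 of 43, beside 3.05%, and TAFE4_tam over TAFE3_tam gave 27 of 43, beside 5.74%. No passing member was 2-fold lower in these 5 microglial comparisons, but the percent of all genes 2-fold lower is not given beside it. The members' median log2 ratios were 1.23, 1.34, 0.09, 1.27 and 1.05, while the median of all genes lay between 0.00 and 0.16.

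In astrocytes 13 of 21 members that passed were higher in TAFE3_oil than in FE3, beside 5.24% of all genes, and 14 of 20 in TAFE4_oil over FE4, beside 11.5%. Tamoxifen gave 1 of 26 with APOE3, Oasl2, beside 2.2%, and 19 of 26 with APOE4, beside 2.09%. TAFE4_tam over TAFE3_tam gave 18 of 29, beside 2.34%. Ifi35 and Eif2ak2 were lower with tamoxifen in the APOE3 pair, both at -1.14 [-2.38, -0.00]. In the APOE4 pair they were higher, at 1.84 [0.23, 3.69] and 1.05 [0.23, 1.89]. Median ratios were 1.51, 2.0, -0.02, 1.42 and 1.23.

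In oligodendrocytes 4 of 9 members that passed were higher with P301S and APOE3, Ifit3, Irf9, Bst2 and Ifitm3, beside 4.49% of all genes, and 3 of 10 with APOE4, beside 8.86%. Tamoxifen gave 0 of 13 with APOE3, beside 1.53%, and 8 of 23 with APOE4, beside 1.49%, and TAFE4_tam over TAFE3_tam gave 3 of 23, beside 2.91%. Vascular cells had more members over the minimum and smaller ratios. P301S gave 8 of 38 with APOE3, beside 2.45%, and 17 of 38 with APOE4, beside 6.65%. Tamoxifen gave 0 of 38 with APOE3, beside 1.86%, and with APOE4 2 of 41, Irf7 and Ifih1, beside 1.99%. TAFE4_tam over TAFE3_tam gave 4 of 39, Irf7, Trim30a, Eif2ak2 and Slfn2, beside 3.45%. Endothelial cells were 107, 131, 94, 97 and 77 of the vascular nuclei from FE4 to TAFE4_tam, so the class holds a changing mix. The 13 endothelial nuclei of TAFE4_tam that held 66 Irf7 UMIs are among them.

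In CA1 neurons 10 of 18 members that passed were higher with P301S and APOE3, beside 1.78% of all genes, and 6 of 13 with APOE4, beside 9.16%. Tamoxifen gave 1 of 23 with APOE3, Ifit3, beside 1.5%. With APOE4 it gave 26 of 32, beside 2.49%, which included all 4 sensors and 9 of the 10 effectors that passed. TAFE4_tam over TAFE3_tam gave 19 of 33, beside 1.48%. Median ratios were 1.78, 0.84, -0.06, 1.60 and 1.13. These comparisons share libraries, so their counts are not independent of each other: TAFE4_oil is in the P301S and the tamoxifen ratio of APOE4, and TAFE4_tam in the last 2.

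**Figure D4:**
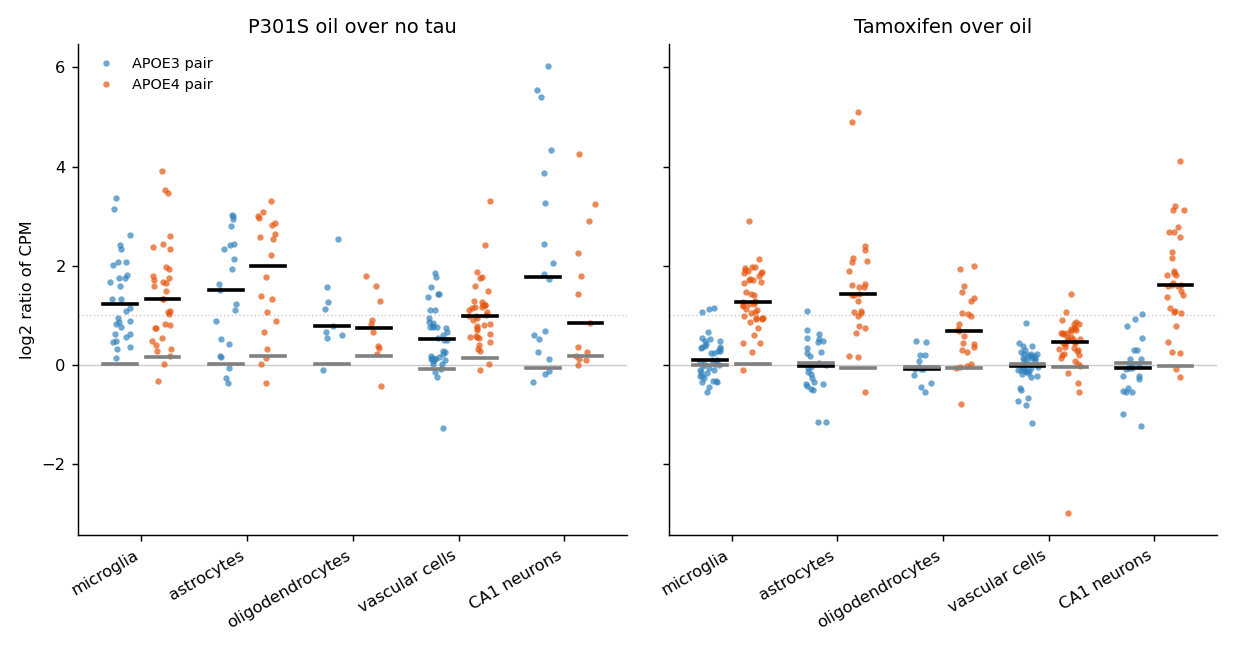
Log2 ratios of the members that passed the minimum, by cell class and APOE allele, for P301S with oil over no tau (left) and tamoxifen over oil (right), with a black bar at the members' median and a grey bar at that of all genes. On the left the members' medians lie above those of all genes for both alleles; on the right the medians in microglia were 0.09 with APOE3 and 1.27 with APOE4.

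The signal was uneven between nuclei. Nuclei with at least 5 core UMIs numbered 0 and 0 in CA1 neurons of FE3 and FE4. In the P301S libraries they were 15 of 580 nuclei (2.59%), 16 of 933 (1.71%), 3 of 306 (0.98%) and 61 of 1046 (5.83%). They held 42.7%, 35.7%, 37.1% and 50.2% of the core UMIs of the class. Without them the core of CA1 neurons was 80.7, 76.3, 45.8 and 175 CPM, still above the 8.93 and 6.96 CPM of FE3 and FE4. In TAFE4_tam these nuclei held 397 Ifit1 UMIs, and microglial markers were 0.918 UMIs per nucleus in them and 0.824 in all CA1 neurons. Their median depth was 3797 UMIs, against 3050.5 in all CA1 nuclei there.

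In astrocytes such nuclei were 0, 3, 8, 6, 4 and 15, and the 15 of 236 in TAFE4_tam (6.36%) held 61.7% of the core UMIs. In microglia they were 0, 1, 4, 6, 2 and 33, and the 33 of 1554 (2.12%) held 23.9%. Median depth in TAFE4_tam was 1631 UMIs in astrocytes and 912 UMIs in microglia, and a shallower nucleus reaches 5 core UMIs less easily, so these shares are not comparable between classes. In endothelial cells of TAFE4_tam 13 of 77 nuclei held 87.5% of the core UMIs, and 1 nucleus held 128 of the 534. Those 13 were deep, with a median of 10362 UMIs against 1041 UMIs in the class. The endothelial sum of 1857 CPM therefore rests on few nuclei, and without those 13 it was 655 CPM, beside 401 CPM in TAFE4_oil without its 16.

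To compare shares at equal depth, each nucleus was thinned to 1000 UMIs and shallower nuclei were left out. UMIs of at least 2 different core genes were then found in 2.27% [0.47, 6.50] of FE4 microglia. With P301S and APOE3 the share was 3.11% [1.35, 6.04] after oil and 3.88% [1.69, 7.51] after tamoxifen. With APOE4 it was 2.47% [1.19, 4.49] after oil and 12.8% [10.0, 16] after tamoxifen. FE3 had 0 of 60 such nuclei, which allows up to 5.96%. Too shallow to enter were 77 microglia of FE3 and 421 to 1045 of the other libraries. Without thinning the microglial shares were 0%, 0.66%, 2.69%, 4.63%, 2.89% and 10.49%. The shares in astrocytes were 0.20%, 0.10%, 3.13%, 1.39%, 2.14% and 10.3%, and in CA1 neurons 0%, 0%, 1.57%, 0.86%, 0.66% and 4.44%. Without thinning, astrocytes gave 14.8% and CA1 neurons 13.1% in TAFE4_tam. Inhibitory neurons, the class with the lowest thinned share in TAFE4_tam, had 0.68% there, with a median depth before thinning of 3232.5 UMIs, beside 1130 UMIs in the microglia that entered. No class is known to lack these genes, so no background share can be set from one.

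**Figure D5:**
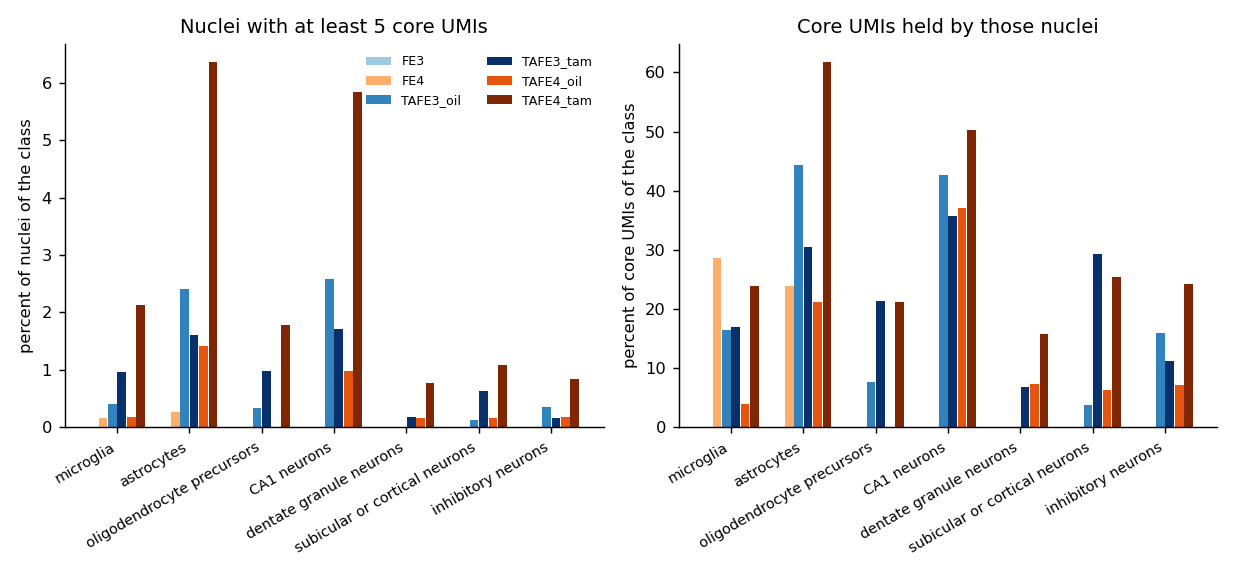
Percent of nuclei with at least 5 core UMIs (left) and percent of the class's core UMIs that these nuclei held (right), by cell class (7 shown) and library, as bars from 0. In CA1 neurons the bars of TAFE4_tam reach 5.83% of nuclei and 50.2% of core UMIs.

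The other genes of the pathway, 68 of 75 listed names found, show where the pathway was visible outside the members. The interferons themselves were almost absent: Ifnb1 had 1 UMI in microglia and 1 in excitatory neurons of TAFE4_tam and 0 in those classes elsewhere, and Ifng had 0 in both. Interferon transcripts were thus not detectable at this depth, which does not show that they were absent. In microglia the P301S ratios on the log2 scale, with APOE3 and APOE4, were 0.97 and 0.74 for the factor Irf8 and 1.10 and 0.70 for the nucleotide hydrolase Samhd1. Ifngr1, a chain of the receptor for type II interferon, had -0.33 and -0.68, and Jak1 and Irf2 had opposite signs with the alleles, at 0.20 and -0.30 and at 0.24 and -0.30. In excitatory neurons Psmb8, a subunit of the immunoproteasome, had 1.23 and 1.71, and Irf8 1.08 and 0.71. The lowest there were Jak1 with -0.55 and -0.50, Irf1 with -0.77 and -0.28 and Tyk2 with -0.54 and -0.07.

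In astrocytes Stat3 had 0.29 and 1.05, Jak1 0.49 and 0.00, Irf3 -0.34 and 0.28 and Irf2 -0.21 and -0.49. In vascular cells Samhd1 had 0.49 and 0.53, Il10rb 0.21 and 0.85 and Irf2 0.10 and 0.27. The lowest there were Irf3 with -0.29 and -0.36, Ifitm1 with -0.85 and -0.12 and Ifngr1 with -0.06 and 0.81. In CA1 neurons the 6 genes of that list taken by the same rule lay between -0.48 and 0.22, for example Jak2 with 0.22 and 0.11. Counted by the same 2-fold rule, 12 of 45 of these genes that passed were higher with tamoxifen and APOE4 in microglia, 6 of 23 in astrocytes and 9 of 25 in CA1 neurons, beside 3.05%, 2.09% and 2.49% of all genes. With APOE3 the counts were 1 of 33, 0 of 25 and 0 of 19, beside 1.67%, 2.2% and 1.5%.

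Members with the printed element and members without it overlapped in their ratios. In CA1 neurons the median log2 ratio of TAFE4_tam to TAFE4_oil was 1.60 over 13 members with a match and 1.40 over 13 without. In microglia it was 1.43 over 16 and 1.25 over 18. In astrocytes the P301S ratio with APOE3 had a median of 2.34 over 11 members with a match and 0.48 over 8 without, but the first ranged from -0.27 to 3.03 and the second from -0.37 to 2.13. With APOE4 the astrocytic P301S medians were 2.60 over 10 members with a match and 0.89 over 7 without. In CA1 neurons they were 2.44 over 7 and 1.83 over 9 with APOE3, and 2.26 over 7 and 0.22 over 4 with APOE4. Microglia gave 1.59 over 11 and 0.82 over 12 with APOE3, and the reverse with APOE4, 1.33 over 12 and 1.68 over 14. These counts are of members that passed the minimum.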

How the data were processed

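Single-nucleus RNA was sequenced from frozen mouse tissue, hippocampus per the sample labels, where the labels' protocols speak of a brain hemisphere, 1 library for each of 6 groups. The authors deposited raw UMI counts per gene and barcode. Per the file headers, Cell Ranger 3.1.0 wrote them; mm10 and Seurat are named, without a role, in the submitters' processing notes. Nuclei with at least 500 UMIs, 300 genes and at most 5% mitochondrial UMIs were kept. Scrublet called doublets in each library at its own threshold, with 0.8% expected per 1000 nuclei, and 1073, 861, 906, 381, 1409 and 1591 nuclei were removed from FE3, FE4, TAFE3_oil, TAFE3_tam, TAFE4_oil and TAFE4_tam. The 72006 nuclei left were clustered without the interferon genes (scanpy 1.11.5, Leiden resolution 1.0) into 33 clusters and named from marker lists; with those genes included, 95.6% kept their class. Counts were summed by class and library and given as CPM. The 45 members and all lists were chosen with earlier results of these data known. Genes counted in a comparison had 20 or more UMIs in the pair together and 3 CPM in one of them; a class needed 50 nuclei. A library at 0 was set to 3 counts for a bound. Members described in full were those past 2-fold with at least 100 UMIs, and the other members are given by their levels; other pathway genes were the 3 highest and 3 lowest by the smaller ratio of both P301S pairs, of which 1 gene is not reported here. The summing and ratio steps were checked on simulated counts. Alternatives changed the filters, the minimum for members, the fold line, doublet removal, clustering, scaling (TMM, edgeR 4.0.16) and thinning.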

Additional observations from a re-analysis of the deposited data

Results flagged for a closer look

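The summed core ratios of tamoxifen to oil had opposite signs in the 2 alleles in 5 classes. The log2 ratio of tamoxifen to oil in the APOE4 pair minus that in the APOE3 pair was 1.67 in astrocytes, 0.94 in oligodendrocytes, 2.42 in CA1 neurons, 1.12 in inhibitory neurons and 1.23 in endothelial cells. Each rests on 4 single libraries, so the difference was not tested, and in 4 of these classes the APOE3 interval included 0. The negative sign with APOE3 was not stable: under the alternatives it was kept in 4 of 7 values in astrocytes, 3 of 7 in oligodendrocytes, 6 of 8 in CA1 neurons and 6 of 8 in inhibitory neurons.

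Core levels were also found in nuclei that no comparison used. T cells of TAFE4_tam held 1119 CPM of core UMIs over 53 nuclei. Unnamed cluster 13, led by haemoglobin genes, held 279 CPM in TAFE4_tam and 105 CPM in TAFE4_oil, beside 44.2 CPM in FE4. With APOE3 it held 161 CPM in FE3, 159 CPM after oil and 161 CPM after tamoxifen, so FE3 was as high there as the P301S libraries with APOE3. Unnamed cluster 32, led by liver genes, held 114 CPM in TAFE4_tam.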

How the results depend on the processing

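Core log2 ratios of P301S over no tau kept their sign in 135 of 135 alternative values (0.69 to 4.90), and those of tamoxifen with APOE4 in 68 of 68 (0.35 to 3.30). Among these, microglia, astrocytes, oligodendrocyte precursors and vascular cells have no value at the limit of 1% mitochondrial UMIs. Oligodendrocytes have none at that limit for P301S with APOE3. Tamoxifen with APOE3 ranged from -0.70 to 1.05 and had no stable sign. Medians of members kept their sign in 151 of 153 values for P301S and in 77 of 77 for tamoxifen with APOE4. The causes of the following moves were not tested.

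With at least 1000 UMIs per nucleus, microglia gave a median of -0.16 and a core ratio of -0.12 for tamoxifen with APOE3 and a core ratio of 1.79 with APOE4. With at least 100 UMIs per member, the medians were -0.15 in microglia for tamoxifen with APOE3, and in astrocytes 0.85 for P301S and 0.88 for tamoxifen, both with APOE4. With no mitochondrial limit, the core ratio in astrocytes was 0.31 for tamoxifen with APOE3 and 1.06 with APOE4 (median 0.90). In vascular cells it was then 0.93 for P301S with APOE3, 0.69 with APOE4 (median 0.51) and 0.35 for tamoxifen with APOE4 (median 0.22). With at most 1% mitochondrial UMIs, oligodendrocytes with APOE4 gave core ratios of 0.78 for P301S and 1.95 for tamoxifen (median 0.27). CA1 neurons then gave 4.47 and 2.31 for P301S and -0.70 and 3.30 for tamoxifen, with APOE3 and APOE4. With interferon genes used in clustering, CA1 neurons gave 4.85 for P301S with APOE4, 0.19 for tamoxifen with APOE3 and 1.39 with APOE4 (median 1.14). Without Ifit1, an alternative chosen after seeing the data, CA1 neurons gave 2.73 for P301S with APOE3, and 0.24 and 1.65 for tamoxifen with APOE3 and APOE4.

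Counts of members past the fold line moved by over 1.5 times in 177 of 598 values. The settings included 1.5-fold in place of 2-fold, no minimum for members, and at least 100 UMIs per member. Most of the highest counts below came from the looser fold or the dropped minimum, so not all are counts past 2-fold. The percent of all genes under these settings is not given. For tamoxifen with APOE4 they ranged from 19 to 39 in microglia, 0 to 30 in astrocytes, 1 to 13 in oligodendrocytes, 0 to 15 in vascular cells and 7 to 28 in CA1 neurons. For P301S with APOE3 and APOE4 the ranges were 4 to 27 and 5 to 26 in microglia, 2 to 30 and 2 to 34 in astrocytes, 0 to 14 and 0 to 21 in oligodendrocytes, 2 to 18 and 2 to 28 in vascular cells, and 1 to 26 and 0 to 29 in CA1 neurons. For tamoxifen with APOE3 they reached at most 6, in oligodendrocytes, among these classes. For TAFE4_tam over TAFE3_tam they were 13 to 38, 0 to 26, 0 to 10, 1 to 19 and 6 to 25 in microglia, astrocytes, oligodendrocytes, vascular cells and CA1 neurons. No paired analysis was possible because each group is 1 library. The P301S ratio of microglia with APOE3 rests on 9 core UMIs in FE3.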
